A study of Mus musculus with 2 samples.

Results

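Arterial luminal endothelial cells, the cells that line the inner face of an artery, were selected from 2 single-cell RNA-seq libraries of mouse aorta. Members were chosen by the measured counts themselves, that is by which genes were detected in each cell barcode. A barcode entered the class when it held 300 genes or more, had no more than 10% of its UMIs (tags that let each captured RNA molecule be counted a single time) on mitochondrial genes, and showed a UMI in at least 3 of the 8 endothelial genes Egfl7, Esam, Ecscr, Cdh5, Cldn5, Ptprb, Tie1 and Cd93. It also had to show at least 2 of the 6 arterial genes Sfrp1, Gkn3, Gja5, Bmx, Bmp4 and Tmem158, with more arterial genes than genes of a capillary set (Rbp7, Gpihbp1, Cd300lg, Btnl9, Car4, Cd36) or of a venous set (Ackr1, Selp, Sele, Lrg1, Ubd, Tll1), and at most 1 of the 3 lymphatic genes Prox1, Mmrn1 and Reln. The rule found 565 cells among 70127 barcodes and among 5230 endothelial barcodes: 330 in the WT library and 235 in the EC-iCD45KO library. Capillary endothelial cells (1034 WT, 1289 EC-iCD45KO) and venous endothelial cells (260 WT, 397 EC-iCD45KO), chosen in the same way with the other gene sets, served for comparison.

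The study asked what CD45, a tyrosine phosphatase encoded by Ptprc and best known from blood cells, does in the endothelium of atherosclerotic arteries, with regard to endothelial-to-mesenchymal transition and to lesion development. Both groups were ApoE-/- mice on a C57BL/6 background that received a Western diet; ApoE loss slows the clearance of lipoproteins and leads to plaques. The EC-iCD45KO group also carried a tamoxifen-inducible, endothelial-specific deletion of CD45, and the WT group kept CD45. The driver of the inducible deletion, the age and the sex of the mice, the diet's duration and the number of animals per library are not given in the sources used here. Aortas were digested enzymatically and the cells were enriched on beads against CD31 (Pecam1), an endothelial surface protein. With 1 library per group there is no replicate spread, so no test between the groups is possible; the intervals below cover counting error only and every difference between the groups is a difference between these 2 libraries.

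Arterial endothelium differs from capillary and venous endothelium in the signalling that sets arterial fate, in the pressure and flow it meets, and in the elastic matrix it lies on. Notch ligands and receptors on neighbouring cells switch on the Hey repressors, SOX17 acts with them, and the gap junction proteins connexin 37 (Gja4) and connexin 40 (Gja5) couple the cells along the vessel. Capillary endothelium is specialised for exchange, including the uptake of fatty acids, and venous endothelium for the capture of leukocytes.

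Hey2, Gja4 and Klk10, genes with clearly arterial levels, are shown here with the 250 bases before their transcription start, because each holds a short motif of a factor family known from arterial or flow-exposed endothelium. The sequences are those of RefSeq on GRCm38.p6, the assembly also called mm10, and are written 5′ to 3′ on the gene's own strand. Capitals mark the motif searched: TGGGAA of the Notch effector RBPJ in Hey2 (chr10:30842784-30843033, minus strand), ACAAT of SOX factors in Gja4 (chr4:127314040-127314289, minus strand), and CACCC of Kruppel-like factors in Klk10 (chr7:43780804-43781053, plus strand).
Hey2: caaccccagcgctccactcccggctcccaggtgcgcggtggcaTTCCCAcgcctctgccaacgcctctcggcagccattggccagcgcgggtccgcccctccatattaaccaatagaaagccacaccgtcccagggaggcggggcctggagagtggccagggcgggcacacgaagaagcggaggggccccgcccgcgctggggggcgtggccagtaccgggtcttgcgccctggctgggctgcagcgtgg
Gja4: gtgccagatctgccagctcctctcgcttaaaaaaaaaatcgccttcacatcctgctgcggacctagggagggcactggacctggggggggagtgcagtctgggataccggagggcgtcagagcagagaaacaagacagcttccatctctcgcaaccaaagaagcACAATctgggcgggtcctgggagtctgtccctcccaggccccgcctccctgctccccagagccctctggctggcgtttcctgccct
Klk10: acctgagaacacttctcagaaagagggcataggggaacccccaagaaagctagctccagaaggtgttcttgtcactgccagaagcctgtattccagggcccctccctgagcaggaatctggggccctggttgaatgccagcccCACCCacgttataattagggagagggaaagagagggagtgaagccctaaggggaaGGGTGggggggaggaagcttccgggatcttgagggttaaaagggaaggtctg
Both strands were searched, and matches of different motifs did not overlap in these windows. The RBPJ match in Hey2 was on the reverse strand and began at -207, the SOX match in Gja4 was on the forward strand at -86, and Klk10 held a CACCC at -107 and its reverse complement at -52. Of the 25 genes named below as highest in arterial cells, 19 had RefSeq windows, 22 in all: 7 windows (31.8%) held the RBPJ motif against 21.6% of 32851 windows, 3 (13.6%) held the SOX motif against 27.7%, and 12 (54.5%) held CACCC against 52.0%. These motifs are short and common, and a match is a string of letters in the window, not a measured binding site.

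The label was checked against genes outside the rule. Pecam1, the enriched surface protein, stood at 1668 CPM (UMIs of the gene per 1000000 UMIs of the summed class) in WT arterial cells and 1353 in EC-iCD45KO arterial cells, and at 719.7 and 827.9 in capillary cells. Erg, a transcription factor of endothelial identity, stood at 150 and 195.4 CPM. The 15 genes of a wider endothelial list, these 2 among them, summed to 4557 and 4568 CPM in arterial, 4415 and 5264 in capillary and 4710 and 4862 in venous cells. Against both other classes in both libraries, 2 of the 15 were at least 2-fold lower and 0 higher (all genes: 1.88% and 2.28%). The class therefore carried endothelial genes outside the rule, but it also held RNA of other cell types. In all, 300 of 330 WT cells (90.91%) and 223 of 235 EC-iCD45KO cells (94.89%) had UMIs of at least 2 markers of some other class. The luminal position was not measured.

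The arterial cells were deeper than the average barcode, with a median of 3088 UMIs and 1642 genes per cell in the WT library and 4038 UMIs and 1934 genes in the EC-iCD45KO library, against 1552 and 1438 UMIs over all kept barcodes. Their summed depth was 1386301 and 1494183 UMIs. The 2 libraries shared 340 barcodes; 2 WT and 4 EC-iCD45KO arterial barcodes also occurred in the other library, and none was arterial in both.

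Arterial cells carried an elastic-artery matrix, connexin 37 and a set of secreted factors far above the other endothelial classes, in both libraries. Outside the rule genes, 186 of 6771 genes with at least 20 CPM (2.75%) were at least 2-fold higher in arterial cells than in both capillary and venous cells in both libraries, and 132 of 6975 (1.89%) were at least 2-fold lower. Since the classes were drawn from the same counts, these are descriptions of the class. The 25 genes with the largest smallest ratio over the 4 comparisons ran from Spon1 (at least 2.20 on the log2 scale in each) to Adh7 (at least 4.31).

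Elastic matrix genes were prominent among them. Eln (chr5:134702593-134747323), which encodes elastin, stood at 2129 CPM in WT arterial cells against 114.1 in capillary and 395.5 in venous cells, and at 1869 in EC-iCD45KO arterial cells against 151.3 and 232.1. Fbln5, a fibulin needed to assemble elastic fibres, stood at 1293 CPM in WT arterial cells against 223.6 and 169.1, and at 880.7 in the EC-iCD45KO library against 165.7 and 102.2. Arterial levels of both were also above those of smooth muscle cells, the main elastin source known in the aortic wall: smooth muscle Eln was 660.7 and 1022 CPM, and smooth muscle Fbln5 354.4 and 312.9. Col8a1, a short-chain collagen of the subendothelial matrix, stood at 963 and 348 CPM in WT and EC-iCD45KO arterial cells, against 21.83 to 114.5 in capillary and venous cells. Of 19 elastic fibre and basement membrane genes, 8 were at least 2-fold higher in arterial cells in all 4 comparisons and none was lower, against 261 of 11470 genes (2.28%) and 216 (1.88%) at the 5 CPM minimum used for lists. The list's medians were nevertheless small (0.41 and 0.12 against WT capillary and venous cells, 0.67 in both comparisons of the EC-iCD45KO library), and the other members did not pass 2-fold in all 4; the medians over all genes lay between -0.08 and -0.01.

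Arterial identity genes were split. Gja4, connexin 37, stood at 352.7 CPM in WT arterial cells against 39.51 in capillary and 58.98 in venous cells, and at 419.6 in EC-iCD45KO arterial cells against 62.44 and 29.28. Hey2, a repressor downstream of Notch, stood at 61.31 CPM against 1.46 and 3.47 in the WT library, and at 43.5 against 3.28 and 0.53 in the EC-iCD45KO library. These are the genes whose promoter windows are printed above, and both set arterial cells apart from the other classes in each library. Stmn2, a microtubule regulator, and Clu, a secreted chaperone, did so too: Stmn2 was at 603 and 579.6 CPM in arterial cells against 129.2 to 184.2 in the other classes, and Clu at 4793 and 2819 against 669.4 to 1434.
Other arterial genes were shared with capillary cells. Sox17, the SOX factor of arterial fate, did not separate arterial from capillary cells: it stood at 155.8 CPM in WT arterial and 202 in WT capillary cells, and at 208.1 and 174.2 in the EC-iCD45KO library, while venous cells were at 55.51 and 48.98. Dll4, a Notch ligand, showed the same sharing, with 45.44 CPM in WT arterial, 56.78 in WT capillary and 19.08 in WT venous cells, and 115.1, 75.16 and 18.63 in the EC-iCD45KO library. Efnb2, the ephrin ligand of arteries, stood at 105.3, 87.51 and 30.36 CPM in the same WT classes. In all, 5 of 16 arterial identity genes and 2 of 15 measured Notch genes were at least 2-fold higher in arterial cells in all 4 comparisons, and none was lower.

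**Figure D1:**
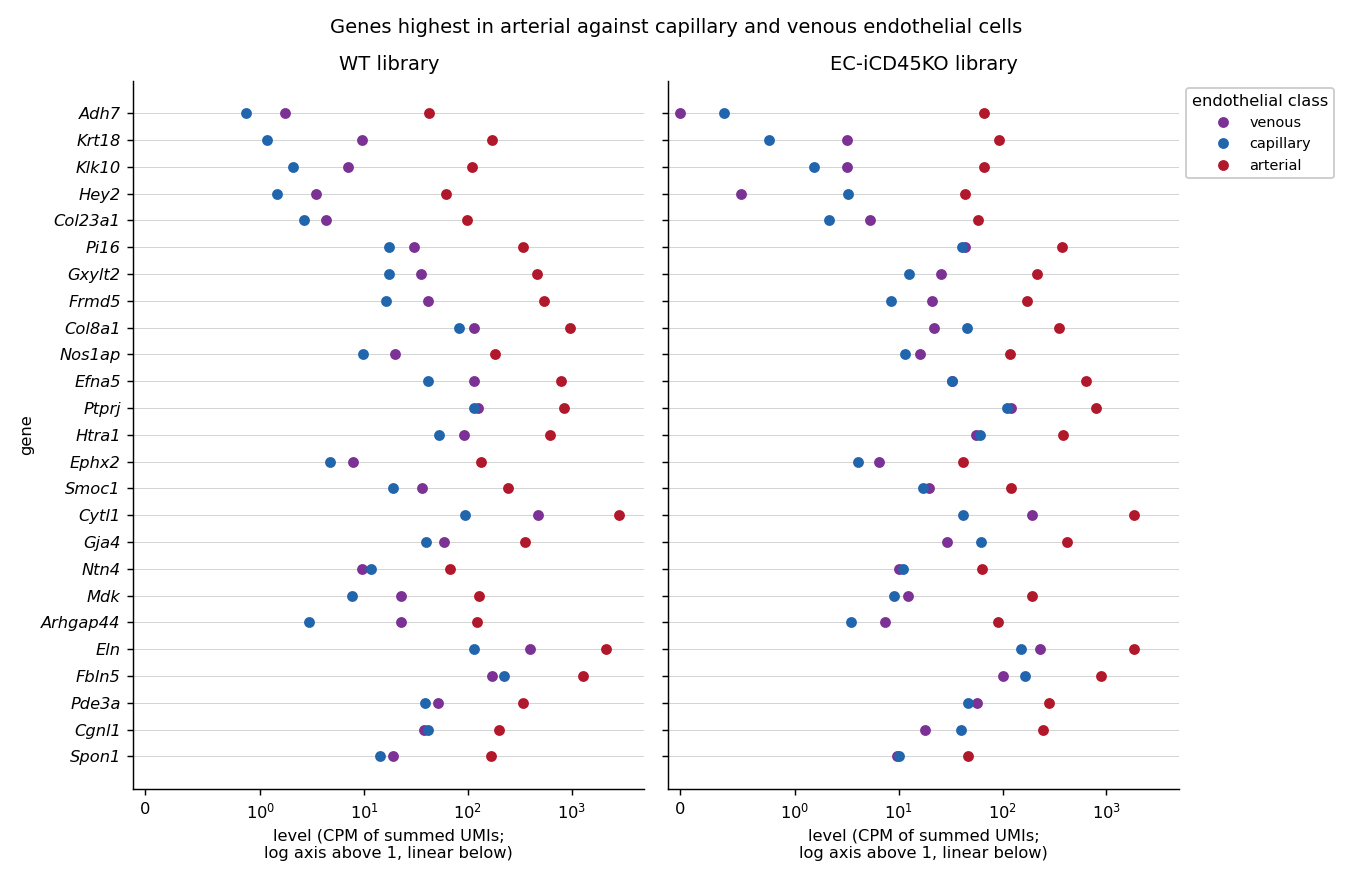
Levels (x axis, CPM of summed UMIs, log scale above 1 and linear below) of the 25 genes that exceed capillary and venous cells most, 1 gene per row, in the WT library (left) and the EC-iCD45KO library (right). Each point is the level of 1 class in 1 library; the arterial points lie to the right of both others for every gene shown, and Cytl1 reaches 2845 and 1853 CPM.

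Among secreted and signalling genes, Cytl1 (chr5:37735519-37739820), a small cytokine-like protein, stood at 2845 CPM in WT arterial cells against 93.37 in capillary and 477 in venous cells, and at 1853 in the EC-iCD45KO library against 41.62 and 191.1. Edn1, the precursor of the vasoconstrictor endothelin 1, stood at 548.9 and 411.6 CPM in arterial cells of the WT and EC-iCD45KO libraries, against 64.39 to 112.8 in the other endothelial classes. Bmp6, a BMP ligand, stood at 460.9 and 295.1 CPM against 153.7 and 150.5 in capillary and 49.44 and 15.44 in venous cells. Each of these was higher in arterial cells within both libraries. Efna5, an ephrin ligand, and Ptprj, a receptor tyrosine phosphatase of the same broad family as CD45, were also among the 25: Efna5 at 784.8 and 633.1 CPM and Ptprj at 849 and 787.1, against 32.37 to 125.8 in the other classes for both genes.
Several less familiar genes were nearly confined to the arterial class among the 3 classes compared. Adh7, an alcohol dehydrogenase that oxidises retinol, stood at 42.56 and 66.93 CPM in arterial cells and at 1.74 or less in capillary and venous cells. Krt18, a keratin better known from epithelia, stood at 169.5 and 91.69 CPM against 9.54 or less. Klk10, a secreted protease of the kallikrein family, stood at 108.9 and 66.26 CPM against 6.94 or less. Adh7 and Klk10 each overlap an antisense gene, and whether counting used strand is not given in the sources used here. Pi16, a peptidase inhibitor, stood at 343.4 and 371.4 CPM, but it is also a fibroblast marker (266.5 and 742 CPM in the fibroblast class).

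Genes lower in arterial cells included a fatty acid carrier, a VEGF receptor and the apelin receptor. Fabp4, a fatty acid carrier, stood at 1233 CPM in WT arterial cells against 18300 in capillary and 6951 in venous cells, and at 1112 against 16530 and 5909 in the EC-iCD45KO library. Kdr, VEGF receptor 2, stood at 20.2 and 41.49 CPM in arterial cells against 341.6 and 416.6 in capillary cells. Aplnr, the apelin receptor, had no UMI in WT arterial cells, which allows a level of up to 2.16 CPM, and stood at 1.34 CPM in EC-iCD45KO ones, against 63.31 to 127.2 in the other classes. Each of these arterial levels was below every capillary and venous level. Scarb1, a lipoprotein receptor, stood at 20.2 and 24.76 CPM against 128.4 to 258.2, and Nrp2, a co-receptor of venous and lymphatic endothelium, at 15.87 and 26.1 against 146.3 to 229. Of 11 measured lipid-handling genes, 3 were at least 2-fold lower in all 4 comparisons and none was higher.
Of 10 flow-responsive genes, 0 were 2-fold higher or lower in all 4 comparisons, which is near the shares over all genes (2.28% and 1.88%). Klf2, a transcription factor that laminar flow induces, stood at 1299 CPM in WT arterial and 1329 in WT capillary cells. The contractile and mesenchymal matrix lists also held 0 such genes.

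The class was graded inside. By the number of arterial rule genes detected, 118, 78, 71, 37 and 26 WT cells held 2, 3, 4, 5 and 6 of them, and 81, 62, 45, 34 and 13 EC-iCD45KO cells did. Just outside the rule, 89 WT and 66 EC-iCD45KO barcodes held 1 arterial gene and none of the capillary and venous sets. From those barcodes to cells with 4 or more arterial genes, the summed level of the 16 arterial identity genes, none of them in the rule, went from 3676 to 9183 CPM in the WT library and from 3197 to 7003 in the EC-iCD45KO library. The 19 matrix genes went from 4380 to 10340 CPM and from 3994 to 8137. Median depth moved the same way, from 1609 to 4544 UMIs per cell in the WT library and from 1891 to 6728 in the EC-iCD45KO library, so cells with more arterial genes were also deeper. Macrophage markers moved the opposite way, from 3595 to 1377 CPM and from 10610 to 2819. The part of depth and of macrophage RNA in the gradient was not tested.

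**Figure D2:**
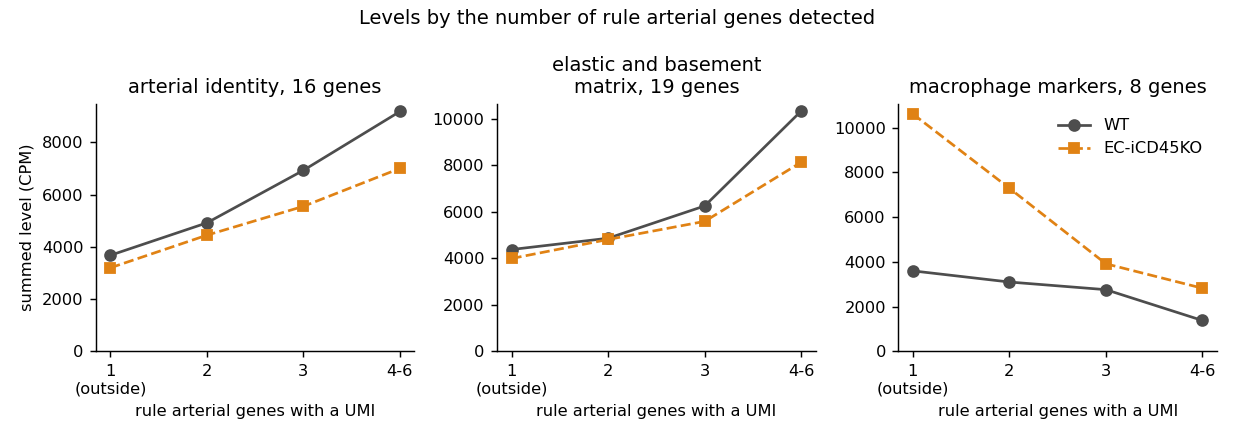
Summed level (y axis, CPM, from 0) of 16 arterial identity genes, 19 elastic and basement matrix genes and 8 macrophage markers, by the number of arterial rule genes with a UMI (x axis; 1 is just outside the rule). Each point is the summed cells of 1 library; the first and second panels go up and the third goes down in both libraries.

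Sfrp1 encodes a secreted Wnt antagonist. Cells with an Sfrp1 UMI differed from arterial cells without one at similar depth in the WT library (185 and 145 cells, medians of 3193 and 3001 UMIs). In WT cells with Sfrp1, Eln was at 2740 CPM against 1137 without, Fbln5 at 1683 against 659.4, and Edn1 at 749 against 223.6. Stmn2 and Cytl1 went the other way, with Stmn2 at 486.9 against 792 CPM and Cytl1 at 2257 against 3801. Fabp4, the capillary gene, was at 576.6 CPM with Sfrp1 and 2300 without. In the EC-iCD45KO library (104 and 131 cells, medians of 4556 and 3877 UMIs) the order was the same for Eln (2513 against 1318 CPM), Fbln5 (1147 against 652.6), Stmn2 (539.3 against 614.1) and Fabp4 (711.9 against 1454), but Edn1 (416.1 against 407.7) and Cytl1 (1850 against 1856) were nearly level. Dcn, a fibroblast gene, was also unlike, at 578.9 CPM with Sfrp1 and 1847 without in WT and at 594.4 and 247.4 in EC-iCD45KO; its part was not tested. A split by Bmp4, another rule gene, gave a similar WT order at less similar depth (medians of 3910 and 2833 UMIs), with Eln at 2872 CPM with Bmp4 and 1282 without, Edn1 at 840.4 and 216.3 and Fabp4 at 615.8 and 1937. In EC-iCD45KO the Bmp4 split had Edn1 at 510.6 and 268.5 CPM. The WT split by Tmem158 had Edn1 at 617.9 and 279.6 CPM and Fabp4 at 1168 and 1486. Other rule genes did not repeat the order in WT. Fabp4 was higher with Gkn3 (1291 against 1131 CPM), Gja5 (1284 against 1146) and Bmx (1260 against 1181). Edn1 was lower with Gkn3 (500.6 against 632.8) and Gja5 (520.3 against 597.5), and higher with Bmx (626.7 against 399.8). Sfrp1 is a rule gene, so a cell without it entered through 2 or more of the other 5.

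Between the libraries, arterial cells were a smaller share of endothelial barcodes in EC-iCD45KO: 235 of 2823, or 8.32% (95% Clopper-Pearson interval 7.33 to 9.41), against 330 of 2407, or 13.71% (12.36 to 15.15), in WT. The difference was -5.39 percentage points (Newcombe interval -7.11 to -3.69). The capillary share was 42.96% in the WT and 45.66% in the EC-iCD45KO library, and the venous share 10.8% and 14.06%. With every barcode thinned to 1000 UMIs before the rule was applied, which leaves out shallower barcodes, the arterial shares were 10.22% (118 of 1155) and 3.90% (53 of 1359). Of all kept barcodes, however, arterial cells were 0.835% (WT) and 0.812% (EC-iCD45KO), a difference of -0.02 points (-0.16 to 0.12). The size of the difference therefore depends on the denominator, and the CD31 enrichment can set both. When cells with 2 arterial genes were left out, the difference in the endothelial share was -3.35 points. Without arterial cells that held 2 or more markers of another class it was -0.82 (-1.38 to -0.33). In that value the endothelial barcodes of the denominator were not cut in the same way, so it is not a share among cells with few such markers.

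The rule genes themselves are given as a description. Sfrp1 stood at 1301 CPM (185 of 330 cells) in WT and 266.4 CPM (104 of 235 cells) in EC-iCD45KO. Gkn3, a gastrokine family member used as an arterial marker, stood at 414.8 and 162.6 CPM, and Bmp4, a BMP ligand, at 373.7 and 190.1. Gja5, connexin 40, was the rule gene that stood higher in EC-iCD45KO, at 248.1 and 294.5 CPM. Bmx, a cytoplasmic tyrosine kinase, stood at 237.3 and 182 CPM, and the membrane protein gene Tmem158 at 648.5 and 396.2. In capillary and venous cells the 6 genes lay between 1.54 and 69.38 CPM.

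Ptprc (chr1:138062861-138175708, minus strand), the deleted gene, was lower in EC-iCD45KO arterial cells but not absent. WT arterial cells held 162.3 CPM (Poisson interval 141.8 to 185) and EC-iCD45KO arterial cells 73.62 (60.51 to 88.73); the log2 ratio was -1.14 (-1.48 to -0.81). A UMI was present in 34.85% of WT and 22.98% of EC-iCD45KO arterial cells, and after thinning to 1000 UMIs in 16.41% (12.54 to 20.91) and 8.30% (5.07 to 12.65). Classes that an endothelial deletion would leave intact were lower too: smooth muscle cells went from 213.7 to 81.52 CPM (log2 ratio -1.39), fibroblasts from 178.4 to 91.21 (-0.97) and macrophages, which express CD45, from 547.5 to 326.1 (-0.75). The thinned share with a UMI was 42.01% and 25.6% in macrophages and 64.07% and 54.36% in T cells, which express CD45 as well. The thinned share of smooth muscle cells with a UMI was 27.83% and 11.21%, at median depths of 1392 and 1439 UMIs, so the arterial share lay at or below that of a cell type not expected to express CD45 and is not read as expression. The part of free RNA was not tested, and the arterial counts do not check the label. A deletion of part of the gene need not lower its 3′ or other reads, and where the deleted part lies is not given in the sources used here. Without cells that held 2 arterial genes, the arterial ratio was -0.74. Apoe, inactivated in both groups, stood at 22.36 and 23.42 CPM in arterial cells, with a UMI in 27 of 330 and 26 of 235 cells.

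Across all genes, the arterial cells of the 2 libraries were close: of 6790 genes that averaged 20 CPM or more, 136 (2.00%) were at least 2-fold higher and 187 (2.75%) at least 2-fold lower in EC-iCD45KO. At the 5 CPM minimum used for the lists, 426 of 10800 genes (3.94%) were higher and 590 (5.46%) lower, with a median log2 ratio of 0.00. By counting intervals that excluded 0, 1104 of the 10800 (10.2%) were higher and 1096 (10.1%) lower.

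Contractile genes, which smooth muscle cells express and which endothelial cells gain in endothelial-to-mesenchymal transition, were higher in EC-iCD45KO arterial cells. Of 11 such genes, 7 were at least 2-fold higher and none lower, against 3.94% and 5.46% of all genes, with a median log2 ratio of 1.12. Acta2, smooth muscle actin, stood at 641.3 CPM (135 of 330 cells) in WT and 1389 (145 of 235) in EC-iCD45KO; its log2 ratio was 1.12. Myh11, smooth muscle myosin, stood at 28.13 and 75.63 CPM (1.42, 0.89 to 1.99), and Tpm2, a tropomyosin, at 38.23 and 114.4 (1.57, 1.13 to 2.06). Capillary cells showed a similar median of 0.99 and venous cells 0.44, and smooth muscle cells themselves 0.66. The 8 smooth muscle markers as a whole, none at 0 in either library, had sums of 1270 (WT) and 2648 CPM (EC-iCD45KO) in arterial cells, and at least 2 of them were seen in 115 and 122 cells. In EC-iCD45KO, 5 cells held 34.59% of the Acta2 UMIs. Stress genes were also higher by smaller amounts: the median was 0.48 over 7 heat shock genes, of which 4 were higher by their counting intervals and none lower, and 0.24 over 12 immediate-early genes, of which 7 were higher and 1 lower, against 10.2% higher and 10.1% lower of all genes. None of either list was 2-fold apart. The part of stress and of smooth muscle RNA in the contractile difference was not tested; in cells with at least 5 endothelial genes the median was 0.66, and in the 30 WT and 12 EC-iCD45KO cells with fewer than 2 markers of any other class, a choice that used 7 of these 11 genes, it was -0.72, with an interval of -2.60 to 0.65 that included 0.

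Mesenchymal matrix genes went the other way. Of 10 measured, 4 were at least 2-fold lower in EC-iCD45KO arterial cells and none higher, against 5.46% and 3.94% of all genes. The median was -0.62, against 0.30 in capillary and -0.46 in venous cells. Col1a1, a fibrillar collagen chain, stood at 124.8 and 31.46 CPM (log2 ratio -1.98, -2.49 to -1.52), Col1a2 at 206.3 and 63.58 (-1.69), and Dcn, the proteoglycan decorin, at 1062 and 407.6 (-1.38). Vim, the intermediate filament vimentin, was on the opposite side at 3755 and 6468 CPM. A few cells weighed on these sums: 5 WT cells held 68.88% of the Col1a2 UMIs and 60.05% of the Dcn UMIs, while the number of cells with a Col1a2 UMI was 53 of 330 and 55 of 235. Fibroblast markers, none at 0, summed to 2115 and 1133 CPM, but at least 2 of the 8 were seen in 146 of 330 (44.24%) and 153 of 235 cells (65.11%). Among them Dpt (1.27, 0.02 to 2.83) and Serpinf1 (0.33, 0.04 to 0.63) were higher. The median changed sign to 0.14 when each cell counted equally (mean of single-cell CPM) and to 0.15 without 13 WT cells that held at least 2 cartilage genes. The part of fibroblast and cartilage RNA was otherwise not tested.

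Contractile and collagen genes were also counted together per cell. A UMI in at least 3 of 10 contractile and collagen genes was found in 56 of 323 WT arterial cells (17.34%, 13.37 to 21.92) and 51 of 229 EC-iCD45KO arterial cells (22.27%, 17.05 to 28.22) after each was thinned to 1000 UMIs, without 7 and 6 cells below that depth. The difference was 4.93 points, with an interval of -1.73 to 11.85 that included 0. This value depended on the random draw of UMIs and on the cell filter. Over 20 other draws, added after seeing the data, it ran from 4.68 to 10.16 points with a median of 7.30 (0.55 to 14.21), and the interval lay above 0 in 13 of them. It was 7.90 points (1.14 to 14.87) with the looser and 8.36 (1.61 to 15.38) with the stricter filter on genes and mitochondrial UMIs, 7.43 (0.85 to 14.24) without the cells with cartilage genes, and 0.07 (-7.80 to 8.15) in cells with at least 5 endothelial genes. Without thinning the shares were 40.61% and 58.72%. Capillary cells went from 9.86% to 16.41% and venous cells from 16.08% to 27.42%. Of immune classes counted in the same way, macrophages stood at 16.6% (15.88 to 17.35) and 15.22% (14.53 to 15.92) and T cells at 0.85% and 1.16%. The 10 genes include Fn1, and whether macrophages make any of them was not tested, so their share is not a background level. The WT arterial share was close to that of macrophages and the EC-iCD45KO one above it, while both were above those of T cells. Of 6 transition factors, 4 were measured and none was 2-fold apart: Zeb2 stood at 107.5 and 204.1 CPM and Zeb1 at 300.8 and 315.9.

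TGF-β pathway genes, whose ligands drive the transition in culture, were nearly level, with a median of 0.13 over 17 measured genes. Of these, 1 was at least 2-fold higher and none lower, against 3.94% and 5.46% of all genes. The ligand Tgfb1 stood at 135.6 and 150.6 CPM, the receptors Tgfbr1 at 67.81 and 74.29 and Tgfbr2 at 155.8 and 175.3, and the inhibitor Smad7 at 142.1 and 144.6. The intervals of these 4 ratios included 0. The gene past 2-fold was the target Tgfbi, a secreted matrix protein, at 74.3 and 150.6 CPM.

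**Figure D3:**
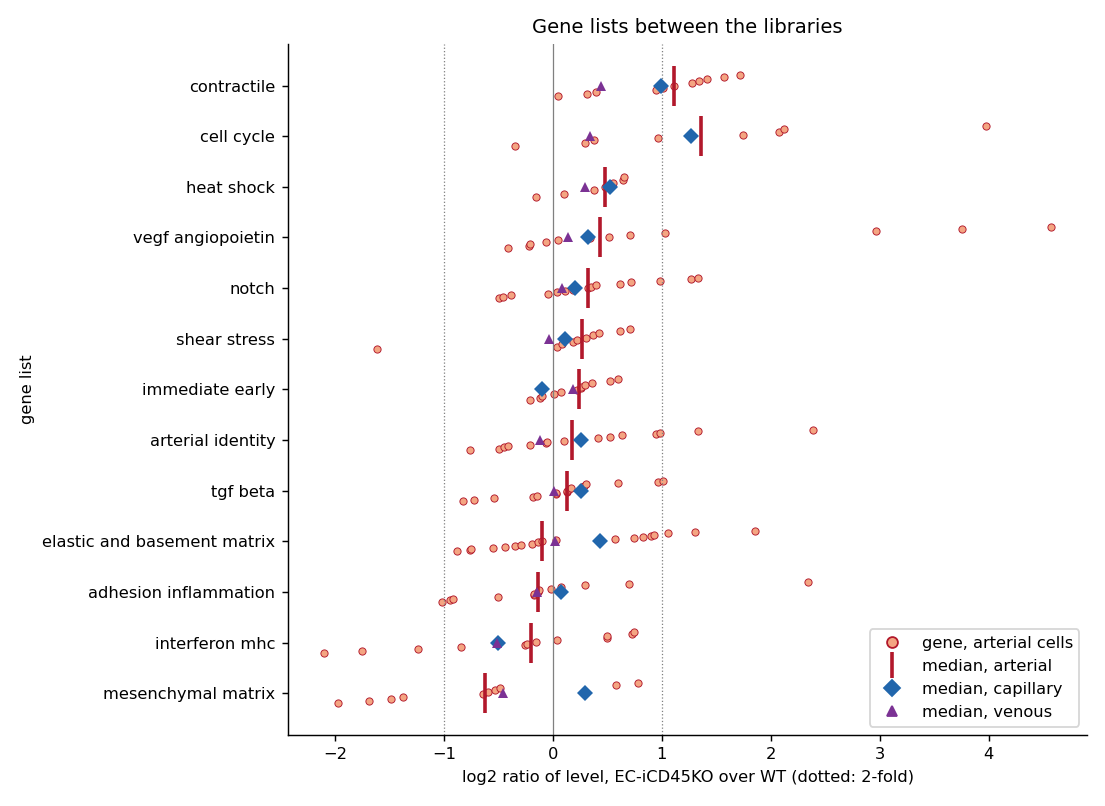
Log2 ratio of level in EC-iCD45KO over WT arterial cells (x axis; dotted lines at 2-fold) for the members of 13 gene lists (rows). Small circles are genes in arterial cells, red bars their median, and blue diamonds and purple triangles the medians in capillary and venous cells. The contractile median lies at 1.12 in arterial and 0.99 in capillary cells, and the mesenchymal matrix median at -0.62 in arterial and 0.30 in capillary cells.

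Arterial identity genes had a small median ratio between the libraries, 0.17 over 16 genes, but did not move together. By counting intervals 8 were higher and 3 lower, against 10.2% and 10.1% of all genes, while their sum went from 7739 to 6103 CPM. Of the 16 genes, 2 were at least 2-fold higher, Dll4 and Igfbp3, and none lower, against 3.94% and 5.46% of all genes. Without the cells with 2 or more angiogenic genes described below, both were less than 2-fold apart. Dll4 then stood at 44.9 CPM in WT and 84.08 in EC-iCD45KO, and Igfbp3, among the genes that picked those cells, at 21.35 and 30.58. Dll4, the Notch ligand, stood at 45.44 CPM (52 of 330 cells) and 115.1 CPM (75 of 235 cells), with a log2 ratio of 1.33 (0.92 to 1.78). Nrarp, a feedback target of Notch, stood at 38.23 and 92.36 CPM (1.26, 0.81 to 1.76), and Hey1 at 25.25 and 50.19 (0.98, 0.39 to 1.61). In capillary cells the ratios of these 3 genes were 0.40, 0.15 and 0.38. Hey2, which marks the arterial class, stood slightly lower at 61.31 and 43.5 CPM, so the Notch targets did not move together; the median of 15 Notch genes was 0.32.

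Flow-responsive genes had a median of 0.26, with 0 of 10 at least 2-fold higher and 1, the antioxidant enzyme gene Nqo1, lower. Over all genes 3.94% were 2-fold higher and 5.46% lower. Klf2 stood at 1299 and 1374 CPM and Klf4 at 418.4 and 475.2. Elastic and basement matrix genes had a median of -0.10, with 3 of 19 at least 2-fold higher and none lower, against the same shares of all genes. Eln stood at 2129 and 1869 CPM, while the basement membrane genes Lama4 (33.9 and 84.33 CPM) and Lamc1 (38.95 and 81.65 CPM), laminin chains, were 2 of the 3 members past 2-fold. The third was Nid2, nidogen 2, at 3.61 and 14.05 CPM.

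Over 13 adhesion and inflammation genes the median was -0.14. In EC-iCD45KO arterial cells 1 (Ccl2) was at least 2-fold higher and 1 (Cxcl1) at least 2-fold lower, against 3.94% and 5.46% of all genes. By counting intervals alone, 3 were higher and 3 lower, against 10.2% and 10.1% of all genes. Vcam1, an adhesion molecule that binds monocytes, stood at 605.9 CPM (189 of 330 cells) in WT and 315.2 (131 of 235 cells) in EC-iCD45KO. The log2 ratio was -0.94 (-1.11 to -0.78). The share of cells with a Vcam1 UMI was nearly level, at 57.27% in WT and 55.74% in EC-iCD45KO. After thinning it was 31.58% (26.54 to 36.96) and 24.89% (19.43 to 31.01), with overlapping intervals. Icam1 stood at 236.6 and 125.2 CPM (-0.92, -1.19 to -0.66), and the neutrophil chemokine gene Cxcl1 at 106 and 52.2 (-1.02, -1.44 to -0.62). In capillary cells Vcam1 and Icam1 were level, with ratios of 0.08 and 0.03, and Cxcl1 was higher at 1.11 (1.92 in venous cells), while Vcam1 in venous cells stood at 705.1 and 227.9 CPM. The monocyte chemokine gene Ccl2 ran opposite in arterial cells, at 22.36 and 115.1 CPM, but 5 EC-iCD45KO cells held 73.26% of its UMIs. Of 10 measured coagulation genes, 2 were at least 2-fold lower and none higher, against 5.46% and 3.94% of all genes, with a median of 0.10. Of the 2, Procr, the endothelial protein C receptor, stood at 356.3 and 149.2 CPM (-1.25, -1.49 to -1.03) and F8, coagulation factor VIII, stood at 33.9 and 8.7 (-1.92). The difference between arterial and capillary ratios was not tested.

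Over all genes 3.94% were at least 2-fold higher and 5.46% lower, the shares to set beside each 2-fold count of this paragraph. Interferon and antigen presentation genes had a median of -0.20 with 3 of 12 at least 2-fold lower. By counting intervals 4 were higher and 6 lower, against 10.2% and 10.1% of all genes, and the list's sum went from 11700 to 12600 CPM. The 3 were the interferon-induced Ifit1 (58.43 and 13.39 CPM), Ifit3 (68.53 and 20.08) and Irf7 (95.22 and 40.16). Capillary cells showed ratios of -1.92, -2.22 and -2.47 for the same genes. VEGF and angiopoietin genes had a median of 0.43 with 4 of 12 at least 2-fold higher: Kdr, Pgf, Angpt2 and Apln, the last with all its EC-iCD45KO UMIs in 1 cell. Without the cells with 2 or more angiogenic genes described below, Kdr stood at 19.88 CPM in WT and 30.58 in EC-iCD45KO, less than 2-fold apart. Pgf then stood at 1.47 and 5.10, Angpt2 at 6.625 and 22.08 and Apln at 0 in both, but these genes were among those that picked the cells. Of 8 measured cell cycle genes, 4 were at least 2-fold higher, with a median of 1.36, but 5 EC-iCD45KO cells held 94.23% of the UMIs of Mki67, a marker of dividing cells.

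A subset of cells was picked for its angiogenic genes. Cells with at least 2 of Apln, Angpt2, Pgf, Igfbp3 and Prnd, a set chosen after values were seen, numbered 4 of 330 (1.21%) in WT and 15 of 235 (6.38%) in EC-iCD45KO, and the latter had a median of 15140 UMIs; the part of doublets, which were not removed, was not tested. In those 15 cells Igfbp3, an insulin-like growth factor binding protein, stood at 763.9 CPM against 30.58 in the other EC-iCD45KO arterial cells and 21.35 in the other WT ones, and Pgf, placental growth factor, at 325.1 against 5.10. Eln, by contrast, stood at 85.23 CPM against 2349. The 15 cells thus met the arterial rule but had a far lower elastin level than the rest. Without the angiogenic cells of both libraries, the Igfbp3 log2 ratio was 0.51 in place of 2.38. Since the cells were picked for UMIs of Igfbp3 and Pgf, the levels of both genes in them and this shift follow in part from the choice, and are given as a description.

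The largest differences of single genes were sought among genes that averaged 50 CPM or more. Among the 12 with the highest ratios, Prss23 (a secreted serine protease) was the most widely detected: it stood at 121.9 CPM (77 of 330 cells) in WT and 743.6 (166 of 235) in EC-iCD45KO. Its log2 ratio was 2.61 (2.37 to 2.85), against 0.63 in capillary cells, and 2.18 without the angiogenic cells. It overlaps the antisense gene Prss23os. Upp1, uridine phosphorylase, stood at 51.22 CPM (47 cells) and 195.4 (85 cells), and the tubulin gene Tubb3 at 30.3 (25 cells) and 104.4 (65 cells). These 3 genes were seen in a larger share of cells as well as at a higher level. Ccl7, a monocyte chemokine gene, had the largest ratio, from 15.87 to 170 CPM (3.39), but with 85.43% of its EC-iCD45KO UMIs in 5 cells; Ccl12 had 76.59% in 5 cells. Cwc22, a splicing factor gene, was higher in capillary cells too (2.54 against 1.85 in arterial cells), and its count is uncertain because the mouse genome holds near-identical copies of it. The other 6 were AA467197, Tubb6, Igfbp3, Ccl2, the intermediate filament gene Nes and the chemokine gene Ccl3, with ratios from 1.71 to 2.72. Without the angiogenic cells, the ratio of Upp1 was 1.30 in place of 1.92, that of Tubb6 1.46 in place of 2.40 and that of Nes 0.96 in place of 1.79. In the 30 and 12 cells with fewer than 2 markers of any other class, Prss23 stood at 1.34 (0.57 to 2.12), Igfbp3 at 1.84 (-0.06 to 4.13) and Upp1 at 3.62 (2.36 to 5.46). Tubb6 stood at 4.56 with no upper limit, and Nes at -2.07 with an interval that included 0. When each cell counted equally, 14 of the 24 genes with the highest or lowest ratios moved beyond their intervals and none changed sign: Ccl7 stood at 2.07, Ccl12 at 1.35 in place of 2.60, AA467197 at 1.58 in place of 2.72, Tubb6 at 1.21 and Nes at 0.90, while Ccl3 was larger at 2.72 in place of 1.71 and Tubb3 at 2.58 in place of 1.77.
The 12 genes with the lowest ratios belonged mostly to genes of other tissues. Col10a1, a collagen of cartilage that is turning to bone, stood at 469.6 CPM in WT, all of it in 5 cells, and had no UMI in EC-iCD45KO, at least 233.9-fold lower against a limit of 3 counts over the class. Chad and Omd, small proteoglycan genes of cartilage and bone, also had no UMI in EC-iCD45KO, from 313.1 and 108.2 CPM (at least 155.9-fold and 53.89-fold lower). Ibsp, bone sialoprotein, went from 896.6 to 2.01 CPM and Comp, a cartilage matrix protein, from 451.6 to 4.02, with 74.74% and 93.93% of WT UMIs in 5 cells. Without the 13 WT cells with 2 or more cartilage genes, picked after values were seen and with Comp and Chad among the genes that picked them, the log2 ratio of Comp was -1.47 (-3.19 to -0.09) in place of -6.70, that of Ibsp -5.28 in place of -8.58, and that of Ecrg4 -2.37 in place of -4.32. Without the same cells the ratio of Chad was -6.05 (upper limit -3.04) in place of -9.87, and that of Omd -4.12 (upper limit -0.74) in place of -8.34. Col10a1 then had no more than 3 UMIs in either library, so no ratio was given. Cd79a, Bank1, Ly6d and Aff3, genes of B lymphocytes, went from between 102.4 and 175.3 CPM to between 4.69 and 12.72, and these 4 genes were lower in capillary cells too. The other 3 were Ecrg4, Pcolce2 and Inpp4b.

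**Figure D4:**
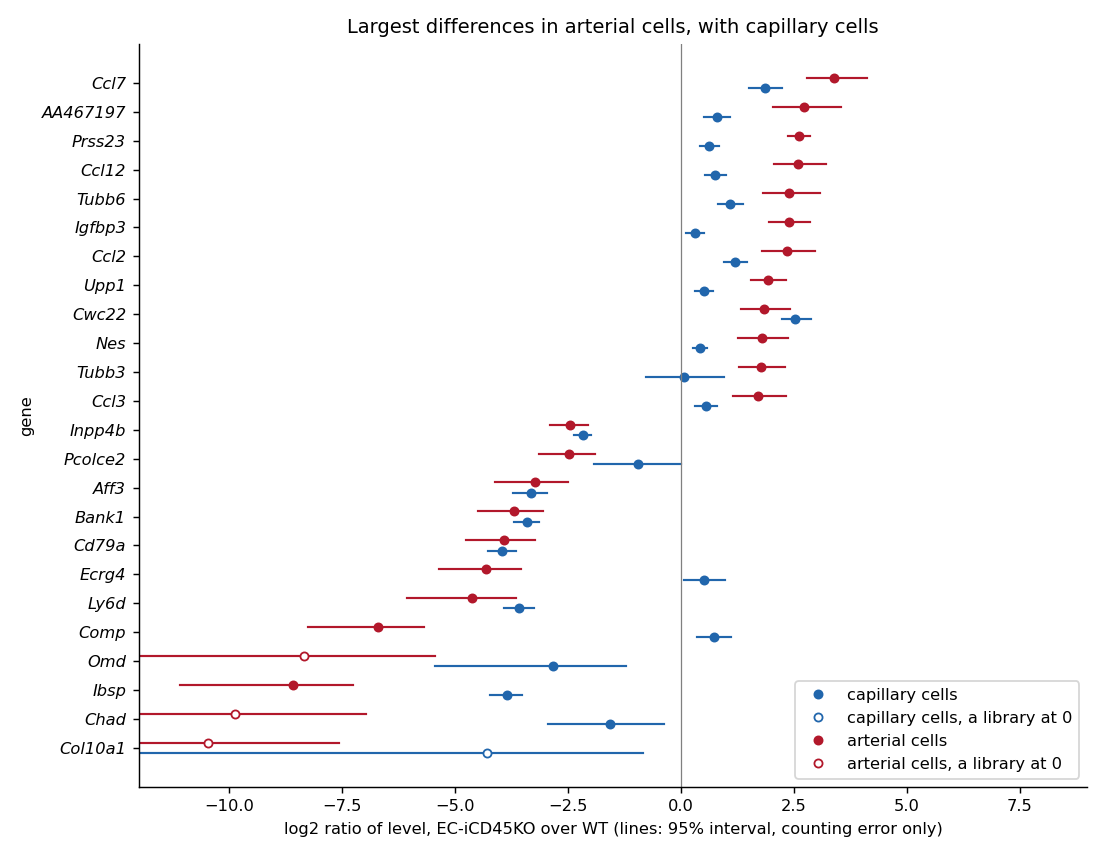
Log2 ratio of level in EC-iCD45KO over WT (x axis) for the 12 highest and 12 lowest ratios in arterial cells (red), with the same genes in capillary cells (blue); lines are 95% intervals for counting error and open points have a library at 0. Prss23 lies at 2.61 in arterial and 0.63 in capillary cells, while Cd79a and Bank1 lie far below 0 in both classes.

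RNA of other cell types in the arterial barcodes differed between the libraries. B cell markers (5 genes, none at 0) were at 455.2 CPM in WT and 26.1 in EC-iCD45KO arterial cells when summed, plasma cell markers at 1385 and 167.3, and T cell markers at 194 and 46.85. Cells of those types were themselves fewer in EC-iCD45KO, with 5630 and 296 B cells, 436 and 13 plasma cells and 3588 and 357 T cells. Macrophage markers went the other way, from 2052 to 3975 CPM, as did neutrophil markers, from 69.25 to 164. Cartilage markers stood at 864.9 CPM in WT, where 13 cells held at least 2 of them, and at 5.35 in EC-iCD45KO. Capillary and venous cells showed the same direction for B, plasma, T, macrophage and neutrophil markers, so lymphocyte and macrophage genes differed between the libraries in each endothelial class.

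**Figure D5:**
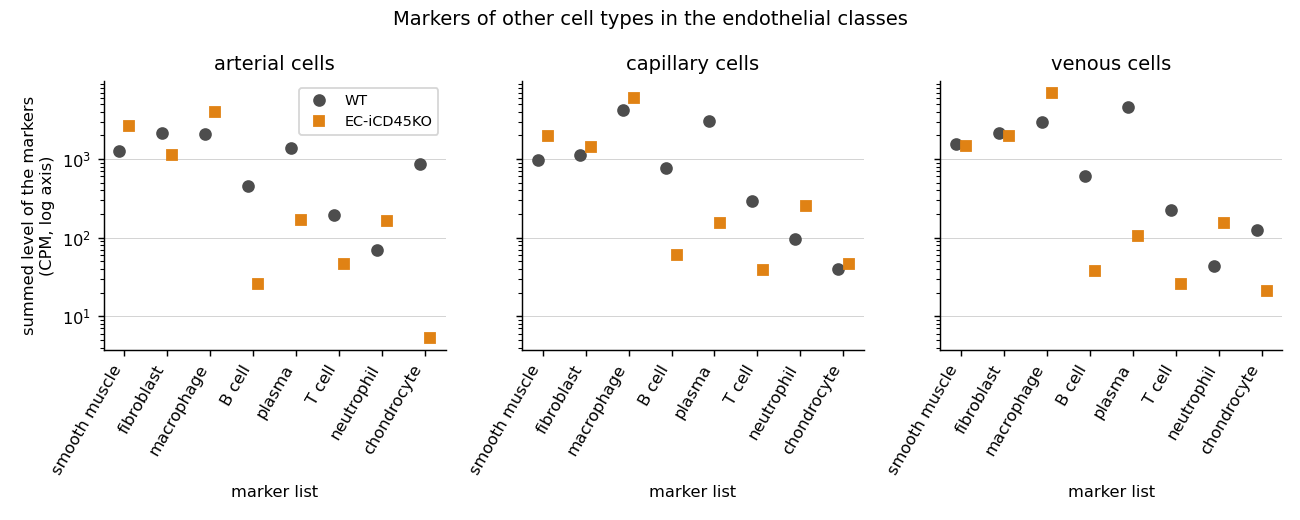
Summed level (y axis, CPM, log scale) of markers of 8 other cell types (x axis) in arterial, capillary and venous endothelial cells (panels) of the WT library (grey circles) and the EC-iCD45KO library (orange squares). In arterial cells B cell markers are at 455.2 and 26.1 CPM and macrophage markers at 2052 and 3975.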

How the data were processed

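Whole-number UMI counts per gene and cell barcode, as deposited, came from Cell Ranger 7.1.0 per the file headers, with mm10 named in the submitters' processing notes; use of introns or strand and the cell calling are not given in the sources used here. The totals were 92058043 UMIs over 39849 barcodes (WT) and 88967918 over 30278 (EC-iCD45KO), no barcode held fewer than 500, and 39503 and 28960 barcodes passed the gene and mitochondrial limits.

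UMIs were summed per class and library and scaled to CPM, with exact 95% Poisson intervals. Ratios had 0.5 UMI added to each count and exact conditional binomial intervals; no interval covers PCR or the spread between cells. Averages of 5 CPM (lists), 20 CPM (counts of 2-fold differences) and 50 CPM (named genes) were required. Named were the 12 highest and 12 lowest ratios between the libraries whose interval excluded 0 (rule, immunoglobulin, haemoglobin and mitochondrial genes left out). Also named were the 25 highest and 10 lowest genes against both other classes by their least favourable ratio (rule genes left out), and list members. Members and lists were chosen with earlier results of these data known. Barcodes of other cell types had at least 3 of that type's markers, more than of any other, and at most 1 of the 8 endothelial genes. Scrublet in scanpy 1.11.5 called 3 of 39716 WT barcodes and none in EC-iCD45KO as doublets, so it had not worked; no doublets were removed, and leaving out the 10% highest scores was an alternative. On simulated counts for the comparison between libraries, 95.63% of intervals over 6790 genes held the true ratio. Those counts were plain Poisson draws, so this checks the calculation alone, without the gathering of UMIs in few cells seen here. Alternatives covered the filters, the rule's thresholds, the scaling (TMM from edgeR 4.0.16 among them) and the minimum level. Gene positions are from GENCODE M21 on GRCm38.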

Additional observations from a re-analysis of the deposited data

Results flagged for a closer look

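Ratios of EC-iCD45KO to WT whose counting intervals lay on opposite sides of 0 in arterial cells and in capillary or venous cells were sought among the 24 named genes, Ptprc, 8 list medians and 39 list members at least 2-fold apart in arterial cells. The difference between classes was not tested in any of them, since there is 1 library per group, and many list members below 2-fold were not examined.

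Comp had a log2 ratio of -6.70 (-8.27 to -5.68) in arterial and 0.73 in capillary cells, and Ecrg4, a secreted peptide precursor gene, had -4.32 (-5.35 to -3.54) and 0.52; without the 13 WT cells with 2 or more cartilage genes the arterial values were -1.47 (-3.19 to -0.09) and -2.37 (-3.45 to -1.49). The mesenchymal matrix list had a median of -0.62 (-1.21 to -0.07) in arterial and 0.30 in capillary cells, and 0.15 in arterial cells without the same 13. Its members Col1a2 (-1.69 against 0.28), Dcn (-1.38 against 0.31) and Lum (-1.48 against 0.38) were split the same way. Cxcl1 had -1.02 in arterial, 1.11 in capillary and 1.92 in venous cells. Bambi, a decoy receptor of the TGF-β family, had -1.07 in arterial and 0.56 in capillary cells, and Jam3, a junction protein gene, -1.95 (-4.57 to -0.22) and 0.58. Bmp2, a BMP ligand, had 2.99 (1.67 to 5.09) in arterial and -2.22 in venous cells, with 76.32% of its EC-iCD45KO arterial UMIs in 5 cells, and Mki67 had 1.75 and -0.74.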

How the results depend on the processing

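Of 168 values recomputed for the main results under the alternatives, 150 stayed within the counting interval, or for counts within 1.5 times. With at least 3 arterial genes required, the Ptprc ratio was -0.74 and the difference in the arterial share -3.35 points. With at least 5 endothelial genes the contractile median was 0.66. Counting each cell equally, the mesenchymal matrix median was 0.14, and without the 13 WT cells with 2 or more cartilage genes (added after seeing the data) 0.15. Leaving out arterial cells with at least 2 markers of another class left 30 and 12 cells (94599 and 44012 UMIs). The endothelial, capillary and venous cells they were set against were not cut in the same way. The arterial share then differed by -0.82 points. The contractile median was -0.72 (-2.60 to 0.65), the TGF-β median -0.41 (-2.10 to 0.91) and the adhesion median -0.65 (-4.37 to 1.27). Between the libraries 510 genes were 2-fold higher and 962 lower, and 291 were higher and 360 lower than in the other classes. Nes was at -2.07, with an interval that included 0. Neither Ptprc nor 18 of the 24 named genes had more than 3 UMIs in either library, so no ratio was given. At a minimum of 50 CPM, 53 genes were 2-fold higher and 63 lower between the libraries, and 122 higher and 87 lower against the other classes. Without thinning the share with 3 contractile or collagen genes differed by 18.12 points (9.77 to 26.11); without the cells with 2 or more angiogenic genes (also added after seeing the data) it differed by 7.38 points (0.57 to 14.47). Of 245 values for named genes, 210 stayed within their interval. Counting each cell equally moved 14 of the 24, and leaving out the angiogenic or the cartilage cells moved 5 each. TMM scaling and leaving mitochondrial, ribosomal protein, haemoglobin and immunoglobulin genes out of the totals moved none of them. The cause was not tested in any of these, beyond the smaller number of cells or genes. No paired analysis was possible because there is a single library on either side. Depth limits genes of a few UMIs, and no value here carries the spread between animals.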
